A study of Mus musculus with 12 samples.

Results

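The 9 genes described here encode proteins of the neutrophil's azurophil granule and of the phagocyte NADPH oxidase: Mpo, Elane, Prtn3, Ctsg and Ms4a3, and Cyba, Cybb, Ncf1 and Ncf4. They were found by symbol among 18193 genes with a probe set of their own, through 13 of the array's 45101 probe sets. RNA from G1ME cells was hybridised to 12 arrays. G1ME is a mouse megakaryocyte-erythroid progenitor line in which, per its label, Gata1 is missing. All 12 samples therefore share the Gata1-negative background, and no cells with an intact Gata1 gene were among them. At each of 18 h and 42 h after transduction there were 3 arrays of cells that received MIGR1-GFP carrying GATA1 and 3 arrays of cells that received the MIGR1-GFP vector alone. GFP-positive cells were sorted in every group, so untransduced cells were left out. The replicates carry the letters A, B and C and are described as biological, and the labels do not say which culture each came from. The GATA1 in the construct is driven by the vector, not by the gene's own promoter. The comparison asks what supplying GATA1 to progenitors that lack it does to these genes.

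Azurophil granules are filled while granulocytes are still immature. They hold myeloperoxidase, which makes hypochlorous acid from hydrogen peroxide, and the serine proteases neutrophil elastase, proteinase 3 and cathepsin G. The phagocyte oxidase makes the superoxide from which that peroxide comes. Its membrane part joins gp91phox (Cybb), which carries the electrons, to p22phox (Cyba), and its cytosolic part, p47phox (Ncf1), p67phox and p40phox (Ncf4), docks on it together with a RAC GTPase when the cell is activated. In blood formation these genes belong to the granulocyte and monocyte programme run by PU.1 and C/EBP factors, whereas GATA1 acts in red cells, megakaryocytes, mast cells and eosinophils.

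Values are deposited linear intensities, and differences are of mean log2(intensity + 16), GATA1 minus vector unless stated, with the SE of the limma fit. Array medians lay between 8.05 and 8.29. The 3′ to 5′ log2 ratio of the control probe sets was 0.80 for beta-actin and -0.11 for Gapdh on GATA1 42 h replicate A, against 0.38 to 0.55 and -0.50 to -0.26 on the other 11 arrays. The array's single Gata1 probe set read 2044 ± 355 in GATA1-labelled and 3137 ± 116 in vector-labelled cells at 42 h, and 2334 ± 91.0 and 3002 ± 284 at 18 h (SD, n = 3 each). The part of the gene that this probe set reads, and whether the construct carries it, are not known here. It therefore checks nothing about the labels, on which every direction below rests. The erythroid marker list moved with the labels, with 11 of 11 tested genes higher at 42 h, where 10.3% of all tested genes were. Of this list, Hba-x, Alas2, Ermap and Car1 were above the array median on GATA1-labelled arrays alone. They were tested through those arrays, so their calls add no support. In these bulk samples, less RNA per cell and fewer cells that express a gene cannot be told apart.

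The 9 genes fell into those that were measurable and those at the bottom of the scale. Mpo, Prtn3, Cyba, Ncf1 and Ncf4 lay above the array median on 3 or more of the 12 arrays and were among the 10759 genes tested. Elane, Ctsg, Ms4a3 and Cybb were below the median of every array and were not tested. At 42 h, 4 of the 5 tested members passed the test of GATA1 against vector: Mpo, Ncf1 and Ncf4 fell and Prtn3 rose. Of all tested genes 20.9% passed there, 10.3% as higher and 10.6% as lower. The 3 arrays of each group did not overlap for the same 4 members, as they did not for 33.4% of all tested genes. Cyba did not pass in this fit. The replicate letter as a block gave each letter an effect shared by all 4 groups. With it Cyba passed as well, as higher, as did 28.4% of all tested genes in either direction.

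**Figure D1:**
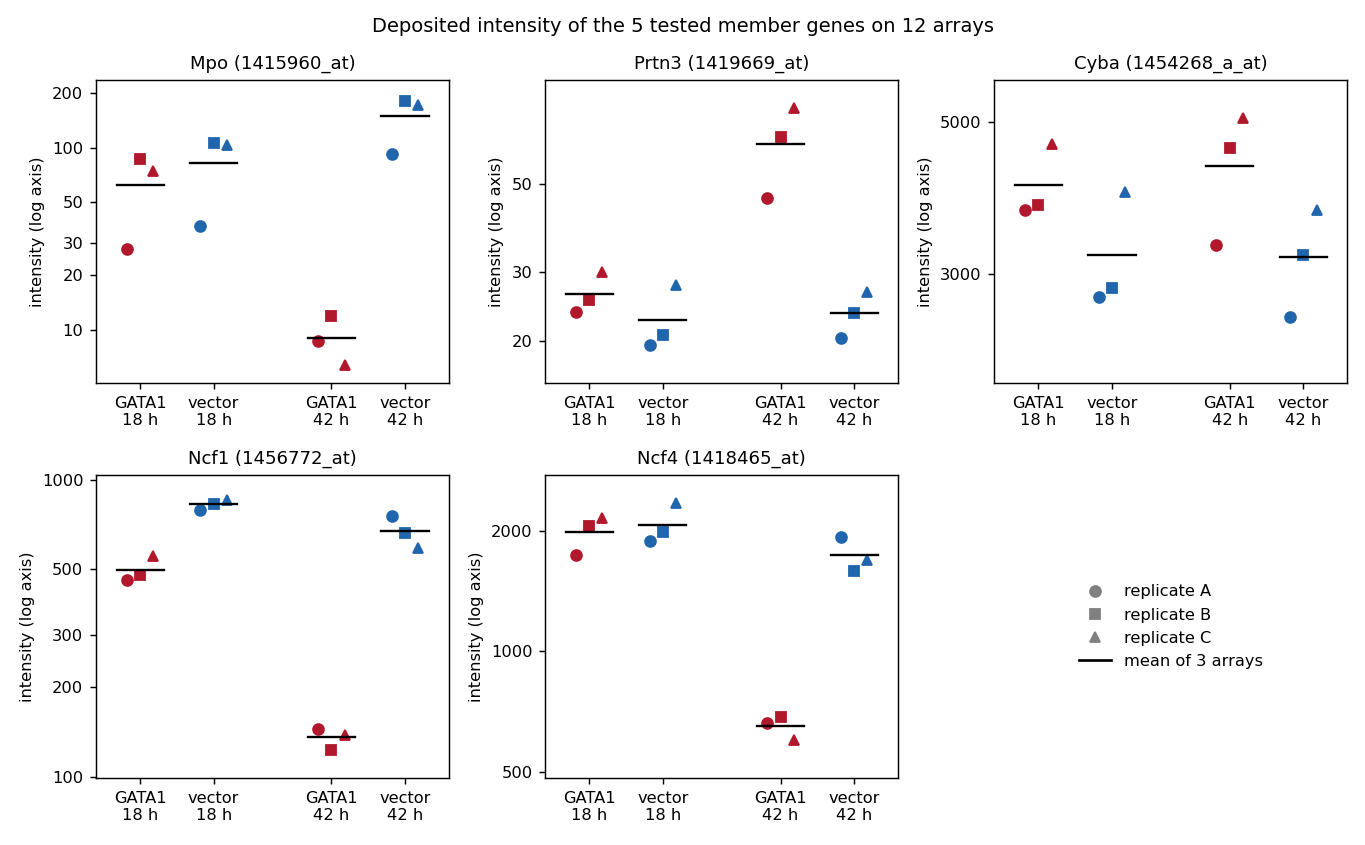
Deposited intensity on a log axis of the brightest probe set of each of the 5 tested genes, with a point per array (circle, square and triangle for replicates A, B and C), GATA1-labelled cells in red, vector-labelled cells in blue and a bar at the mean of 3 arrays. Mpo, Ncf1 and Ncf4 lie lowest in GATA1-labelled cells at 42 h, Prtn3 lies highest there, and the Cyba groups overlap.

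Mpo, myeloperoxidase, fell to near the array median at 42 h. It read 8.7, 12 and 6.4 in GATA1-labelled cells at 42 h, against 92.1, 181 and 172 in vector-labelled cells. All GATA1-labelled arrays were far below all vector-labelled ones, and 2 of them were within 1 unit of their array's median or under it. The difference was -2.67 ± 0.41 (limma adjusted p = 0.0013), a 6.38-fold fall on the log2(intensity + 16) scale. Since GATA1-labelled cells lay at the low end, the size depends on the pseudocount: the difference was -3.88 with a pseudocount of 1 and -1.51 with 64, and it passed with both. Mpo had a larger difference than Ncf1 with pseudocounts of 16 and 1, and a smaller one with 64 (Ncf1 -1.88). At 18 h Mpo read 27.9, 86.1 and 74.2 in GATA1-labelled cells, against 37.3, 106 and 103 in vector-labelled cells. These groups overlapped, and the difference of -0.32 ± 0.41 did not pass (limma adjusted p = 0.9999, 95% interval -1.23 to 0.60). Mpo was lowest on the array lettered A in 3 of the 4 groups, so much of its spread lay between letters.

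Prtn3, proteinase 3, moved the other way. It read 46.3, 65.9 and 78.2 in GATA1-labelled cells at 42 h, against 20.4, 23.5 and 26.6 in vector-labelled cells. All GATA1-labelled arrays were above all vector-labelled ones, though the level stayed low on the scale of the array, where Prtn3 exceeded at most 69.2% of the probe sets of an array. The rise was 0.99 ± 0.14 (limma adjusted p = 0.00101), or 1.99-fold, and it was 1.37 with a pseudocount of 1 and 0.54 with 64. At 18 h Prtn3 read 23.7, 25.4 and 30 in GATA1-labelled cells, against 19.5, 20.7 and 27.7 in vector-labelled cells. The groups overlapped (0.14 ± 0.14, limma adjusted p = 0.9999, 95% interval -0.19 to 0.46).

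The other azurophil proteases showed no measurable level on any array. Elane, neutrophil elastase, read between 4.42 and 4.53 on all 12 arrays. Ctsg, cathepsin G, read between 4.53 and 4.92. Ms4a3, a membrane protein known as a marker of granulocyte-macrophage progenitors, read between 4.88 and 6.36. Its highest values were 6.4 on GATA1 18 h replicate C and 6.1 on GATA1 18 h replicate B and on vector 42 h replicate C. Each of these genes has 1 probe set, and none exceeded an array median. At this end of the scale a change could not be seen, so these values do not show that the genes were silent. Fitted without the filter, the differences of Elane, Ctsg, Ms4a3 and Cybb lay between -0.034 and 0.00734 at 42 h and none passed (limma adjusted p between 0.702 and 0.915).

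**Figure D2:**
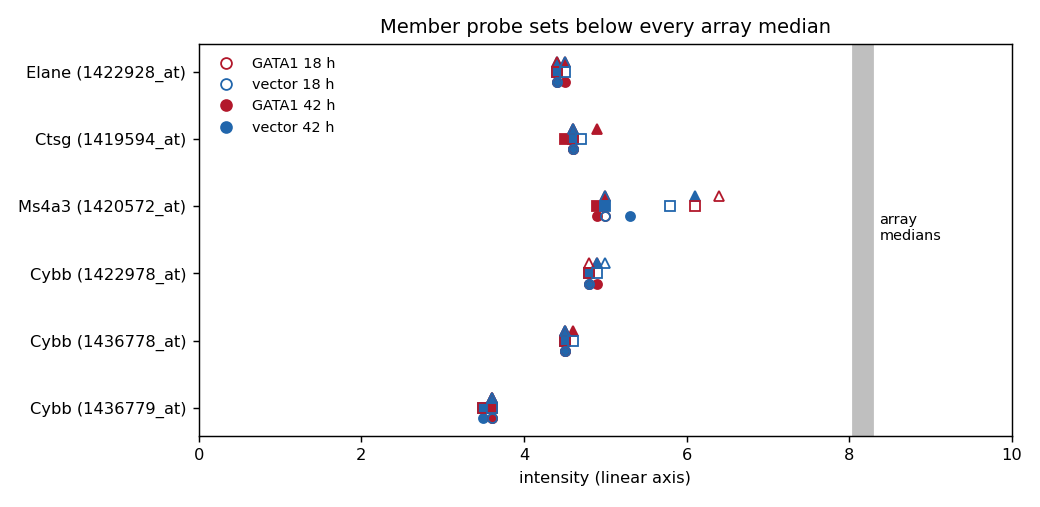
Deposited intensity on a linear axis from 0 of the 6 probe sets of Elane, Ctsg, Ms4a3 and Cybb, with a point per array (red GATA1-labelled, blue vector-labelled, open 18 h, filled 42 h, shapes for replicate letters) and a grey band for the range of the 12 array medians. Every point lies between 3.51 and 6.36, under the band at 8.05 to 8.29.

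Prtn3 and Elane are neighbours on chromosome 10 in RefSeq's gene order for GRCm38.p6, with no protein-coding gene between them. The first was measurable and rose while the second stayed at the bottom of the scale. The 250 bases before each annotated start are shown to compare the promoters of this pair and of Mpo, which fell. They are from RefSeq, build GRCm38.p6, at chr10:79879417-79879666 (+ strand), chr10:79886062-79886311 (+ strand) and chr11:87793534-87793783 (+ strand), written 5′ to 3′ along the gene. Capitals mark matches on either strand to GAGGAA, a core of PU.1 sites, or AACGG, a core of MYB sites.
Prtn3: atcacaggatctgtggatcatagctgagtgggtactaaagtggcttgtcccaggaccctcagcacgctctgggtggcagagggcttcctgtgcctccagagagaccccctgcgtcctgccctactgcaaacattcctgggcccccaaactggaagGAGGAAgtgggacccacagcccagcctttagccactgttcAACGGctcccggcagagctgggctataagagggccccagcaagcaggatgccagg
Elane: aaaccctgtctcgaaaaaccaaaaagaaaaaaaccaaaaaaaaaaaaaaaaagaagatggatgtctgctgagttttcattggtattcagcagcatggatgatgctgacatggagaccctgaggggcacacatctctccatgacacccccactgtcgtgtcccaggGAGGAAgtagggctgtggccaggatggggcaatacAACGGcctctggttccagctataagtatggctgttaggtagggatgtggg
Mpo: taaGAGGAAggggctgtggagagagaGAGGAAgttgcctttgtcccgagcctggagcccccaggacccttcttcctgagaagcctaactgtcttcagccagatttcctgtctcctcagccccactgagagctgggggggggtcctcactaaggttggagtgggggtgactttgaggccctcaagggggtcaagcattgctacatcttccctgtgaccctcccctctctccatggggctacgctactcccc
Prtn3 and Elane hold the same pair of words in the same order. GAGGAA begins at base -95 in Prtn3 and -85 in Elane, and AACGG begins at -55 in Prtn3 and -50 in Elane, counted back from the start. Mpo holds GAGGAA at 2 places, beginning at -247 and -224, and no AACGG. Among all 32851 promoter windows of the same length, 23.3% hold GAGGAA and 14.5% hold AACGG. For GATA factors the words searched were AGATAA and also AGATAG, and with T in place of the first A, TGATAA and also TGATAG. None of the 3 windows holds any of these, which 26.5% of all windows do, and none holds TGTGGT, the word searched for RUNX factors, which 14% of all windows hold. All words were searched on both strands. The words were chosen with the sequences in view. A match is a run of letters and no measured site.

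Of the oxidase genes, Ncf1, which encodes the organizer subunit p47phox, was the only member that passed at both times without a block. With the letter within each time as the block, a fit added after the values were seen, Cyba also passed at both, as higher. In that fit 29.3% of all tested genes passed at 42 h and 3.07% at 18 h, in either direction. The brightest probe set of Ncf1 read 145, 123 and 138 in GATA1-labelled cells at 42 h, against 759, 665 and 590 in vector-labelled cells. The GATA1-labelled arrays were close together and far below the others. The difference was -2.18 ± 0.10 (limma adjusted p = 8.13e-07), a 4.52-fold fall. At 18 h the probe set read 460, 477 and 554 in GATA1-labelled cells, against 796, 830 and 860 in vector-labelled cells. The groups did not overlap at the earlier time either, and the fall was 1.65-fold (-0.72 ± 0.10, limma adjusted p = 0.00627). Without a block Ncf1 was the 1 of 5 tested members to pass at 18 h, where 1.85% of all tested genes did, 0.753% as lower. With the replicate block 3.3% of all tested genes passed there, Ncf1 among them (limma adjusted p = 0.012). At 18 h the arrays of 9.94% of all tested genes lay apart as those of Ncf1 did, with GATA1 lower.

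Ncf1 has 3 probe sets, of which the dimmer 2 come from the same sequence record. The second read 53.6, 101 and 132 in GATA1-labelled cells at 42 h, against 455, 428 and 545 in vector-labelled cells. The third read 18.4, 62.6 and 76 in GATA1-labelled cells, against 248, 191 and 352 in vector-labelled cells. In both, no GATA1-labelled array reached any vector-labelled one, with replicate A the lowest. Fitted separately over 19636 probe sets, a fit added after the values were seen, the differences at 42 h were -2.18, -2.20 and -2.11 from the brightest down (limma adjusted p = 1.36e-06, 0.00106 and 0.00681). At 18 h they were -0.72, -0.62 and -0.58, and the brightest alone passed (limma adjusted p = 0.00924, 0.74 and 1). The 18 h call thus rests on the brightest probe set. It also ended without the 4 arrays lettered A (-0.70, limma adjusted p = 0.083), and adjusted p ran from 0.00298 to 0.725 across the other settings for Ncf1.

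**Figure D3:**
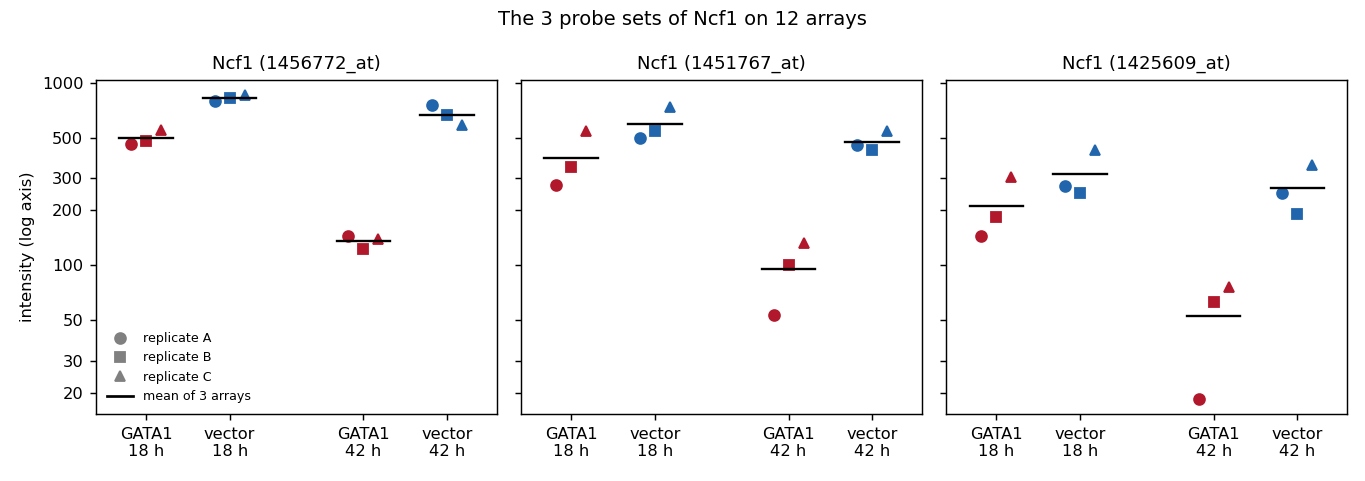
Deposited intensity on a shared log axis of the 3 probe sets of Ncf1, drawn as in the plot of the 5 tested genes. All 3 are lowest in GATA1-labelled cells at 42 h, and at 18 h the groups are apart in the brightest probe set but overlap in the other two.

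Ncf4, which encodes p40phox, fell at 42 h and not at 18 h. It read 662, 687 and 602 in GATA1-labelled cells at 42 h, against 1937, 1588 and 1692 in vector-labelled cells, with no overlap. The difference was -1.39 ± 0.11 (limma adjusted p = 2.58e-05), a 2.63-fold fall, and it passed in each of the 26 other settings tried. At 18 h Ncf4 read 1739, 2060 and 2159 in GATA1-labelled cells, against 1891, 1990 and 2346 in vector-labelled cells. These overlapped (-0.06 ± 0.11, limma adjusted p = 0.9999, 95% interval -0.31 to 0.19).

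Of the membrane subunits Cyba was measurable, and whether it passed depended on pairing the arrays. Cyba, which encodes p22phox and is also used by other oxidases of the NOX family, read 3307, 4590 and 5067 in GATA1-labelled cells at 42 h, against 2603, 3205 and 3721 in vector-labelled cells. The groups overlapped, and the difference of 0.43 ± 0.20 did not pass (limma adjusted p = 0.174). Its 95% interval, -0.02 to 0.89, holds both no change and a rise. The difference was not set against those of Ncf1 and Ncf4 in a test. Cyba was higher in the GATA1-labelled array in 3 of 3 same-letter pairs, and with the replicate block it passed as higher (limma adjusted p = 0.00845, and 0.00314 with the letter within each time as the block, a fit added after the values were seen). At 18 h Cyba read 3717, 3780 and 4652 in GATA1-labelled cells, against 2784, 2863 and 3950 in vector-labelled cells (0.35 ± 0.20, limma adjusted p = 0.751, 95% interval -0.10 to 0.80). It was again higher in 3 of 3 pairs, with a limma adjusted p of 0.0907 with the replicate block and 0.0381 with the letter within each time as the block. Cybb, which encodes the catalytic subunit gp91phox, read between 3.51 and 4.997 in its 3 probe sets on all 12 arrays. In every group, then, 3 subunit genes were above the array median or near the top of the scale and 1 was at its bottom.

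The promoters of Ncf1, which fell at both times, and Cyba, which did not pass unless the arrays were paired, are shown to set the same 250-base window side by side in the oxidase genes. They lie at chr5:134229626-134229875 (- strand) and chr8:122432941-122433190 (- strand) of GRCm38.p6 (RefSeq), with the same words in capitals and the words for GATA and RUNX factors added.
Ncf1: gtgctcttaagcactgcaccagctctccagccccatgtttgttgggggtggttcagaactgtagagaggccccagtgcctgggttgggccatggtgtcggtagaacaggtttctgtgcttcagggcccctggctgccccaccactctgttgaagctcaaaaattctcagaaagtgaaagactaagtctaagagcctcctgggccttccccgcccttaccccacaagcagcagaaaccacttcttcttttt
Cyba: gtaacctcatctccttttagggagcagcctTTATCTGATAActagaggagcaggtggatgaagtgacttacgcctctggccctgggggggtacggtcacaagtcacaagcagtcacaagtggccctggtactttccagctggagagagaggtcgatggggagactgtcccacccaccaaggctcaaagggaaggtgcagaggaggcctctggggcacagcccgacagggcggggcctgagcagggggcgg
The Cyba window holds AGATAA on the opposite strand and TGATAA on the gene's strand. They share a base, so that the joint run spans -220 to -210. The Ncf1 window holds none of the words searched. Of the 9 genes 8 have a promoter in the table used, and of these Cybb also holds GATA words, at 2 places, while Ctsg holds GAGGAA and both hold TGTGGT. Among all 32851 windows 26.5% hold a GATA word, 23.3% GAGGAA and 14% TGTGGT.

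**Figure D4:**
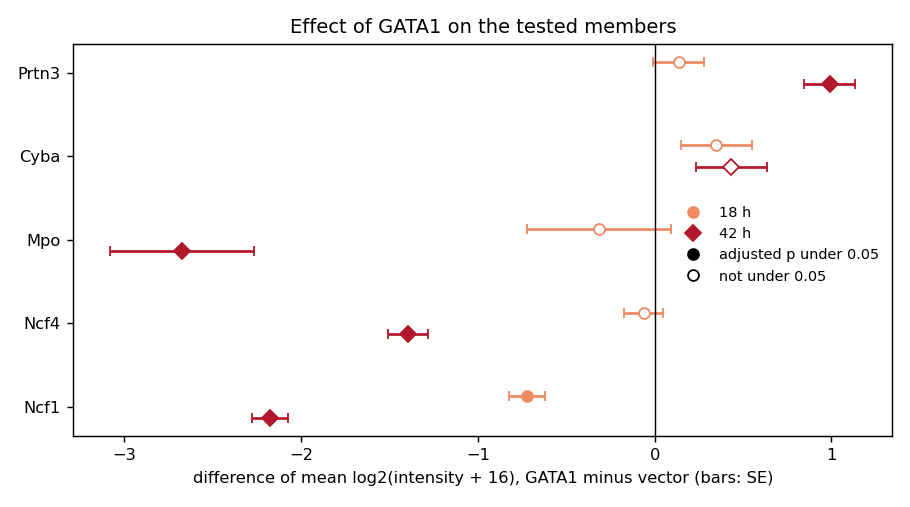
Differences of mean log2(intensity + 16), GATA1 minus vector, for the 5 tested genes at 18 h (circles) and 42 h (diamonds), with bars for the SE and filled symbols where the limma adjusted p was under 0.05. Ncf1 is the only gene filled at 18 h, and at 42 h Mpo, Ncf1 and Ncf4 lie left of 0 and Prtn3 right of it.

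The effect of GATA1 differed between the times for 3 of the 5 tested members. Of all tested genes 4.68% did so (2.31% with a positive and 2.38% with a negative difference). The effect at 42 h minus that at 18 h was -1.45 ± 0.14 for Ncf1 (limma adjusted p = 0.000448) and -1.33 ± 0.16 for Ncf4 (limma adjusted p = 0.00166). For Prtn3 it was 0.86 ± 0.20 (limma adjusted p = 0.047), a call that 16 of 24 other settings ended, with adjusted p of up to 0.116. Leaving out any single array but GATA1 42 h replicate A ended it, with differences between 0.72 and 0.92. For Mpo it was -2.36 ± 0.57 and missed the threshold (limma adjusted p = 0.0515), and it passed in 9 of 25 other settings. For Cyba it was 0.08 ± 0.28 (limma adjusted p = 0.952, 95% interval -0.55 to 0.72). The Ncf1 difference did not pass in the second brightest probe set (-1.58, limma adjusted p = 0.102). Nor did it pass in the third, in the fit over 19636 probe sets (-1.54, limma adjusted p = 0.273).

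Within GATA1-labelled cells, Ncf1, Ncf4 and Mpo were lower and Prtn3 higher at 42 h than at 18 h. Thus 4 of the 5 tested members changed with time, where 14.7% of tested genes did (6.73% higher and 7.94% lower). The differences were -1.76 ± 0.10 for Ncf1 (limma adjusted p = 6.37e-06), -1.58 ± 0.11 for Ncf4 (limma adjusted p = 2.36e-05), -1.57 ± 0.41 for Mpo (limma adjusted p = 0.0304) and 0.89 ± 0.14 for Prtn3 (limma adjusted p = 0.00328). The Mpo call ended in 7 of 25 other settings, 5 of which left out a single array (adjusted p of up to 0.103). These were GATA1 42 h replicates A (-1.56), B (-1.65) and C (-1.49) and GATA1 18 h replicates B (-1.34) and C (-1.43). In vector-labelled cells 0 of the 5 tested members passed over the same interval, where 0.0186% of all tested genes did, and 676 of all tested genes had an unadjusted limma p under 0.05. With the replicate block 0 members and 41 genes (0.381%) passed. Mpo there had the largest difference of the 5 (0.79 ± 0.41, limma adjusted p = 0.853). Comparisons over time share their GATA1-labelled or vector-labelled arrays with those above.

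Of 18 tested genes of azurophil granules, lysosomes and granule processing other than the members, 8 fell and 1 rose at 42 h, where 10.6% of all tested genes fell and 10.3% rose. The list's median was -0.46, against 0.00109 over all genes tested. With the replicate block 10 fell and 2 rose, where 28.4% of all tested genes passed in either direction. Gusb, beta-glucuronidase, read 2507 ± 70.6 in GATA1-labelled and 5417 ± 152 in vector-labelled cells (-1.11 ± 0.08, limma adjusted p = 1.33e-05). Man2b1, lysosomal alpha-mannosidase, fell by 0.92 and Lyz1, a lysozyme, by 0.85, and Cstb, an inhibitor of lysosomal cathepsins, by 0.72. Ctsc, the peptidase that activates elastase, proteinase 3 and cathepsin G by trimming their ends, read 2359 ± 159 in GATA1-labelled and 3651 ± 232 in vector-labelled cells at 42 h (-0.63 ± 0.07, limma adjusted p = 0.00019). Srgn, the proteoglycan core on which granule proteins are packed, read 14186 ± 1275 in GATA1-labelled and 19272 ± 513 in vector-labelled cells (-0.45 ± 0.08, limma adjusted p = 0.00278). The gene that rose was Slpi, an inhibitor of elastase and cathepsin G, at a low level (23.9 ± 5.31 in GATA1-labelled and 15.9 ± 0.80 in vector-labelled cells, limma adjusted p = 0.023), and 6 other settings ended that call, among them leaving out GATA1 42 h replicate A or B or vector 42 h replicate A or B. At 18 h 1 of the 18 genes fell, Ctsc, and 0 rose (1 and 1 with the replicate block). Of all tested genes 1.85% passed there in either direction, and 3.3% with the replicate block. The Ctsc call ended in 14 of 26 other settings, with adjusted p from 0.0189 to 1, among them leaving out any GATA1 18 h array, vector 18 h replicate A or B, GATA1 42 h replicate B or vector 42 h replicate C. The second brightest probe set of Man2b1 did not pass at 42 h (limma adjusted p = 0.503).

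Genes of later neutrophil granules were nearly all at the bottom of the scale. Of 22 with a probe set, such as Ltf, Camp, Lcn2, S100a8 and S100a9, 19 were not tested and read between 3.72 and 11.1. Anxa1, annexin A1, which is not confined to neutrophils, read 313 ± 16.7 in GATA1-labelled and 1234 ± 6.60 in vector-labelled cells at 42 h (-1.93 ± 0.20, limma adjusted p = 0.000128). Ltb4r1, a leukotriene B4 receptor, rose by 0.32 at a low level (limma adjusted p = 0.0225, and 0.0803 without vector 42 h replicate A). Ceacam1, an adhesion molecule, did not pass (0.39 ± 0.17, limma adjusted p = 0.153).

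Of 11 tested partners and activators of the oxidase 6 fell, 0 rose and 5 did not pass at 42 h, where 10.6% of all tested genes fell. The list's median was -0.55, against 0.00109 over all genes tested. Those that did not pass were Rac1, Pak2 (-0.10), Cybc1 (0.03), Rap1a (0.22) and Vav3 (0.28). Tyrobp, the adaptor DAP12 that links myeloid receptors to kinases, fell to 147 ± 48.5 in GATA1-labelled cells, against 1072 ± 80.1 in vector-labelled cells (-2.78 ± 0.25, limma adjusted p = 5e-05). Arhgdib, which holds RAC GTPases in the cytosol, read 4658 ± 204 in GATA1-labelled and 9870 ± 241 in vector-labelled cells (-1.08 ± 0.09, limma adjusted p = 4.33e-05). Rac2, the GTPase of the neutrophil oxidase, read 2881 ± 179 in GATA1-labelled and 5051 ± 397 in vector-labelled cells (-0.81 ± 0.08, limma adjusted p = 7.85e-05). Rac1, its widely expressed relative, had a difference of -0.30 ± 0.12 (limma adjusted p = 0.114, and 0.0191 with the replicate block), and whether the pair differ from each other was not tested. Prkcd, a kinase that phosphorylates p47phox, fell by 0.65 (limma adjusted p = 0.00544). The second brightest probe sets of Rac2 and Prkcd did not pass (limma adjusted p = 0.0526 and 0.302). At 18 h 0 of the 11 passed, where 1.85% of all tested genes did, and the list's median was -0.11. Of the list 6 genes were not tested, among them Nox4, Noxo1 and Duox1, which encode the parts of other oxidases, with values up to 7.77.

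Of the factors and receptors that act on this programme, 7 of 18 tested genes fell and 2 rose at 42 h, where 10.6% of all tested genes fell and 10.3% rose. The list's median was -0.27, against 0.00109 over all genes tested. Spi1, the gene of PU.1, read 101 ± 31.7 in GATA1-labelled and 315 ± 55.4 in vector-labelled cells (-1.53 ± 0.24, limma adjusted p = 0.00159). Cbfb, the partner of RUNX factors, read 1279 ± 104 in GATA1-labelled and 3938 ± 31.6 in vector-labelled cells (-1.61 ± 0.07, limma adjusted p = 4.75e-07). Gata2 fell by 2.36, Meis1, a homeobox factor of progenitors, by 1.18 and Myb by 0.41. The second brightest probe set did not pass for Meis1 (limma adjusted p = 0.306) or Myb (0.111), nor did that of Csf2rb (0.116). The genes that rose were Csf2rb2 (to 5657 ± 127 in GATA1-labelled, against 2003 ± 278 in vector-labelled cells) and Csf2rb (0.99), beta subunits of the IL-3 family of receptors, near-identical copies whose probe sets may read both. Cebpa and Gfi1 were not tested, with values from 3.15 to 4.99 for Cebpa and 6.02 to 6.596 for Gfi1 on the 12 arrays. At 18 h Irf1, an interferon response factor, fell by 0.43 (limma adjusted p = 0.0321) and Csf2rb rose (1.05, limma adjusted p = 0.0344), and the other 16 did not pass. Of all tested genes 1.85% passed at 18 h in either direction. The Csf2rb call at 18 h ended in 14 of 26 other settings, with adjusted p of up to 0.281, among them leaving out any GATA1 18 h array, vector 18 h replicate A or B, GATA1 42 h replicate B or C or vector 42 h replicate B. With the replicate block 3 of the 18 fell and 0 rose at 18 h, where 3.3% of all tested genes passed in either direction. Irf1 also fell at 42 h (-1.02, limma adjusted p = 2.68e-05). This gene was named after its values were seen, and its calls in the other settings were not recorded.

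**Figure D5:**
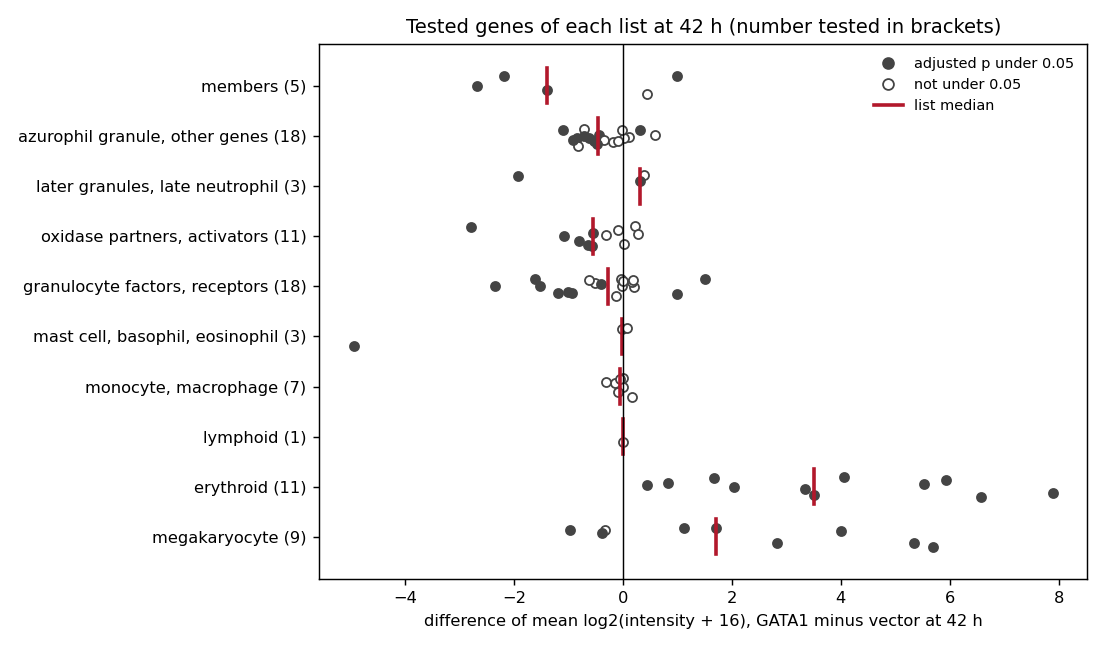
Differences of mean log2(intensity + 16), GATA1 minus vector at 42 h, with a point for each tested gene of each list, filled where the limma adjusted p was under 0.05, and a red bar at the list's median. The granule, oxidase and granulocyte factor lists have medians of -0.46, -0.55 and -0.27, and the erythroid and megakaryocyte lists have medians of 3.51 and 1.70.

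Markers of other cell types that the sorted cells could hold moved as follows at 42 h. Of 15 mast cell, basophil and eosinophil markers with a probe set, 3 were tested and 1 fell, Cpa3 (to 49.9 ± 15.9 in GATA1-labelled, against 2008 ± 541 in vector-labelled cells). Their summed intensity lay between 114 and 149 in GATA1-labelled and between 1600 and 2670 in vector-labelled cells, nearly all of it from Cpa3, while Mcpt8, Fcer1a, Epx and Prg2 read no more than 5.52 on any array. At 18 h the sum lay between 836 and 969 in GATA1-labelled and between 1534 and 2236 in vector-labelled cells. The part of this in the falls of Mpo, Ncf1 and Ncf4 was not tested. Of 14 monocyte and macrophage markers 7 were tested and 0 passed, with no value over 39.7 on any array and Cd14, Adgre1 and Marco at the bottom of the scale. Their summed intensity was 110 to 125 in GATA1-labelled and 114 to 141 in vector-labelled cells. For scale, C1qb read 19 ± 5.84 and Csf1r 20.4 ± 0.58 in GATA1-labelled cells, against 27.6 ± 10.01 and 20.2 ± 0.72 in vector-labelled cells. Of 10 lymphoid markers 1 was tested, Ms4a1, with values from 10.9 to 14.2, and the list summed to 63.4 to 66.9 in GATA1-labelled and 63.6 to 65.6 in vector-labelled cells. In the erythroid list 11 of 11 tested genes were higher (Hbb-y by 7.88 and Car1 by 6.58). In the megakaryocyte list 6 of 9 were higher (Thbs1 by 5.69), and Nbeal2 and Gp9 were lower. Of all tested genes 10.3% rose and 10.6% fell. Car1, Hba-x, Alas2, Ermap and Vwf were above the array median on GATA1-labelled arrays alone and were tested through those arrays. The Gp9 call ended in 11 of 26 other settings, with adjusted p of up to 0.145, among them leaving out any GATA1 42 h array, vector 42 h replicate B or C, GATA1 18 h replicate A or vector 18 h replicate A. The Nbeal2 call ended with the second brightest probe set and without the arrays lettered A.

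Of 48 protein-coding neighbours of the members, 3 on each side of every member in RefSeq's order for GRCm38.p6, 26 were tested. At 42 h 4 of them rose and 3 fell, where 10.3% of all tested genes rose and 10.6% fell. Ncf4 lies beside Csf2rb2 and Csf2rb on chromosome 15, and these rose where Ncf4 fell. Snai3, a zinc finger gene that is the second gene from Cyba on chromosome 8, had differences of 1.46 at 42 h and 1.03 at 18 h by limma (adjusted p = 8.3e-06 and 0.00168). Ms4a6d, the second gene from Ms4a3 on chromosome 19, had differences of -1.60 at 42 h and -0.90 at 18 h by limma (adjusted p = 7.11e-05 and 0.0178). Mpo lies beside Lpo, lactoperoxidase, and near Epx, eosinophil peroxidase, on chromosome 11, and both of these were at the bottom of the scale on all 12 arrays. Between them lies Mks1, a gene of the primary cilium, which fell by 0.34 at a low level (limma adjusted p = 0.0285). Rnf43, the third gene on the other side, rose by 0.21 (limma adjusted p = 0.0446). Its values were near the array medians, from 7.07 to 13.2 on the 12 arrays. Ncf1 lies beside Gtf2i on chromosome 5, which fell by 0.26 (limma adjusted p = 0.0266). These neighbours were named after their values were seen.

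The genes whose log2 values followed those of a member most closely over the 12 arrays, among 10238 tested non-member genes with names other than clone names, are given as a description, since arrays of a group share their treatment. For Ncf1 they were Coro2a (Pearson r = 0.994) and the Fc receptor gene Fcgr3 (r = 0.992), and for Ncf4 Nedd4l (r = 0.984) and Pink1 (r = 0.983). For Prtn3 they were Josd2 (r = 0.985) and Tmem14c (r = 0.983). For Mpo they were Hmces (r = 0.954) and Fap (r = 0.952), and for Cyba Eml2 (r = 0.961) and Unc119 (r = 0.958).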

How the data were processed

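The authors deposited linear probe set intensity values for 12 one-colour Affymetrix arrays, without detection calls. GCRMA and MAS5 are both named in the submitters' processing notes, and which of them made the deposited intensities is not given. The intensities were used as deposited, and 3 arrays a group limit the precision. Probe sets were named through the platform annotation (34945 with 1 symbol, 932 with several, which named no gene). Sequences and gene order came from RefSeq tables for GRCm38.p6, and no gene coordinates were taken for the array, whose build is not named.

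Values were analysed as log2(intensity + 16). The probe set with the highest mean log2 value represented each gene. Genes above the array median on 3 or more of 12 arrays were tested (10759 of 18193). The model was fitted in limma 3.58.1 under R 4.3.3, over all 12 arrays in 4 groups of 3, two-sided, with Benjamini-Hochberg adjustment over all tested genes and a threshold of 0.05. The fit was tried on simulated data with independent arrays. These held no letter effect, so the trial says nothing about pairing. Fold changes understate those of dim genes.

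Earlier results of these data were known when the members, lists, naming rule and alternatives were chosen. In the lists up to 4 genes rising and 4 falling most past the threshold at 42 h were named, with Spi1, Cebpa, Gfi1, Myb, Gata2, Rac1, Rac2, Ctsc and Srgn whatever their values. Lists with no such gene were illustrated by their 2 brightest. Alternatives were other pseudocounts, filters, scalings, probe set rules and variance models, leaving out each array, and the replicate letter as a block. Deviations from the group means correlated above 0.1 in all 3 same-letter pairs of GATA1 and vector at 42 h (0.245 to 0.603) and at 18 h (0.313 to 0.657) and of the vector groups over time (0.353 to 0.539), so the letters were taken as pairing these arrays. They were not for GATA1-labelled cells over time (0.0482 to 0.611).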

Additional observations from a re-analysis of the deposited data

Results flagged for a closer look

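For 3 of the genes the effect of GATA1 differed between 42 h and 18 h by the test of the difference itself. The effect at 42 h minus that at 18 h was -1.45 on the log2(intensity + 16) scale for Ncf1, -1.33 for Ncf4 and 0.86 for Prtn3. With an adjusted p of 0.047, the Prtn3 difference lay close to the threshold. The Ncf1 difference passed in its brightest probe set alone. Groups of 3 arrays are too small for the check on single arrays that stand apart.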

How the results depend on the processing

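The falls of Mpo, Ncf1 and Ncf4 and the rise of Prtn3 at 42 h kept their direction and call in every alternative run in which they could be fitted. The stricter filter left out Prtn3. Leaving out single arrays, the number of members that passed was 4 at 42 h, 1 at 18 h, 2 to 3 for the difference between times, 3 to 4 over time in GATA1-labelled cells and 0 in vector-labelled cells. At 18 h it was 0 with the second brightest probe set, the mean of all probe sets, or the arrays lettered A left out (added after seeing the data), and for the difference between times 1 with the second brightest probe set. Depth is not known for arrays, and the low end of the scale limits Elane, Ctsg, Ms4a3 and Cybb.

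Over all genes, 199 passed at 18 h, with 101 to 204 without single arrays (101 and 120 without GATA1 18 h replicates A and B, 116 each without vector 18 h replicates A and B), 119 with no filter, 113 with the second brightest probe set, 54 with only the arrays compared, 46 without the arrays lettered A and 355 with the replicate block. For the difference between times 504 passed, with 323 to 539 without single arrays (323 without GATA1 42 h replicate B, 324 and 326 without GATA1 18 h replicates B and C), 320 with no filter, 306 with the second brightest probe set, 228 without the arrays lettered A and 853 with the replicate block. Over time in GATA1-labelled cells 1578 passed, with 1026 to 1603 without single arrays (1026 without GATA1 42 h replicate B), 2930 with array weights and 1016 with the second brightest probe set. Leaving out single arrays gave 1656 to 2218 for GATA1 against vector at 42 h, where 2253 passed. In vector-labelled cells 2 passed over time, with 1 to 3 without single arrays, 1 with a pseudocount of 1, the stricter filter, quantile or 75th percentile scaling or an intensity trend, 4 with the second brightest or the mean of all probe sets, 0 with only the arrays compared or without the arrays lettered A, and 41 with the replicate block. With the letter within each time as the replicate block (added after seeing the data), 330 genes and 2 members passed at 18 h and 851 genes for the difference between times. With the letter as the replicate block the Mpo difference between times passed (adjusted p = 0.00535), and beyond the values given in the report it changed no other call of a member. In GATA1-labelled cells over time it gave 2318 genes and the same 4 members. There the same-letter pairs correlated at 0.566 (A), 0.0482 (B) and 0.611 (C), so the B pair was weak.

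Among differences that did not pass, signs turned as follows. At 18 h, leaving out single arrays, Mpo ran from -0.710 to 0.0603 and Ncf4 from -0.127 to 0.0290, above 0 without GATA1 18 h replicate A and, for Ncf4, also without vector 18 h replicate C (0.0278). For Cyba the difference between times ran from -0.0758 to 0.266 (-0.0410 without GATA1 42 h replicate C and -0.0505 with vector 42 h replicate A left out), GATA1-labelled cells over time from -0.0479 to 0.259, and vector-labelled cells over time from -0.128 to 0.154 (0.128 with vector 42 h replicate A left out, 0.00590 with quantile scaling and 0.0381 without the arrays lettered A). Prtn3 over time in vector-labelled cells ran from -0.0230 to 0.126 (-0.0206 with vector 42 h replicate C left out). At 42 h Csf1r ran from -0.00907 to 0.0210, with -0.000538 after quantile scaling, -0.0149 with array weights and -0.0149 without the arrays lettered A. Ms4a1 ran from -0.0215 to 0.0363, with -0.000995, -0.0363 and -0.0119 in those settings and -0.0108 with vector 42 h replicate A left out. The causes were not tested.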
